A study of Mus musculus with 8 samples.

Results

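The genes examined were 9 receptors, surface proteins and transcription factors linked to lymphoid priming, Il7r, Flt3, Il4ra, Tnfrsf13c, Cd5, Siglech, Notch1, Ikzf1 and Ebf1. They were chosen by symbol, after the version of each gene identifier had been dropped, with no threshold on their values. Earlier results of these data were known at the time, so shares of the 9 genes set against all genes are a description. All 9 were found among the 52636 genes of the count table, all 9 are protein-coding, and all 9 were among the 17378 genes that passed the low-count filter. RNAseq was performed on S0 cells from E12.5 mouse fetal liver in 4 WT and 4 DKO libraries. S0 cells are the CD71-negative, Ter119-negative subset of lineage-negative cells, which holds the least mature erythroid progenitors together with other early progenitors. DKO embryos lacked both Vps13a and Vps13c in the whole body, the Vps13a allele through removal of an exon by β-actin-Cre, and the mice were on a C57BL/6J background. The study names intercrosses of Vps13a+/-, Vps13c-/- parents as the source of the sorted embryos. Such a cross gives no embryo with intact Vps13c, so the litters of the WT embryos, and whether they differed from DKO in Vps13c, are not known here beyond their wild-type label. Nothing in the labels says that each library was a separate embryo, so p-values measure the spread between these libraries.

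Lymphoid priming is the low-level expression of lymphoid genes in progenitors that have not yet committed to a lineage. FLT3, the receptor of FLT3 ligand, marks multipotent progenitors that lean towards the lymphoid fate, and IL-7 signalling through IL7R then carries early B and T cell precursors. Ikaros, encoded by Ikzf1, opens the lymphoid programme, NOTCH1 drives the T cell fate, and EBF1 commits cells to the B cell fate.

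The antibodies of the sort bear on these genes. The lineage cocktail that was gated out held antibodies to CD127, which is the IL7R protein itself, and to CD45R, a form of the Ptprc product found on B cells, beside antibodies to T cell and myeloid surface proteins. Il7r RNA was therefore measured in cells selected for little IL7R on their surface. Total counts were 42114489 to 50886469 per WT library and 36981439 to 42587815 per DKO library. Vps13a, one of the deleted genes, had 1825 to 2109 normalized counts in WT and 607 to 1039 in DKO, without overlap, whereas Vps13c, whose count over the whole gene does not check the deletion, overlapped at 504 to 664 and 518 to 1088. For a normalized count, the count was scaled to a common effective library size, the mean over the 8 libraries. By Xist and the Y-linked gene Ddx3y, all 4 WT libraries and DKO replicate 3 were of the male type and DKO replicates 1, 2 and 4 were not, so sex and genotype were largely confounded.

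Of the 9 genes, 5 were called lower in DKO (Flt3, Il4ra, Tnfrsf13c, Cd5 and Siglech) and 0 were called higher. At an unadjusted p under 0.05, and likewise by DESeq2, 6 were lower and 0 higher. A call required a Benjamini-Hochberg adjusted p under 0.05 in edgeR's quasi-likelihood test and a log2 fold change beyond 1 in size. Among all 17378 genes tested, 2.43% were called lower and 6.19% higher. Of the genes called, Siglech, Cd5 and Tnfrsf13c passed the low-count filter only through their WT counts. The direction of these genes is therefore not independent of the filter. An adjusted p under 0.05 with a lower level in DKO, at any fold, was reached by 7 of the 9 genes, against 10.8% of all genes, and 8 of the 9 had all 4 DKO libraries below the lowest WT library, against 14.6% of all genes. The median log2 fold change of the 9 genes was -2.00, and that of all genes tested was 0.03. In bulk libraries, fewer cells of a type and less RNA per cell cannot be told apart. The study examined genes of the hematopoietic cell lineage in these same libraries, so the direction of such genes here is not independent evidence. The calls for Tnfrsf13c, Cd5 and Il4ra depended on single libraries, as given with each gene, and without DKO replicate 1, the DKO library farthest from WT in most of these genes, 6 of the 9 were called lower. With a term for sex in the fit, Notch1 alone was called lower, and the 5 genes above kept log2 changes of -1.63 to -8.98 with adjusted p-values of 0.0695 to 0.197 by edgeR. In DKO replicate 3, the DKO library of the male type, 8 of the 9 genes were below the lowest WT library. This compares 1 library with no test, and the share of all genes below WT in that library was not counted.

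**Figure D1:**
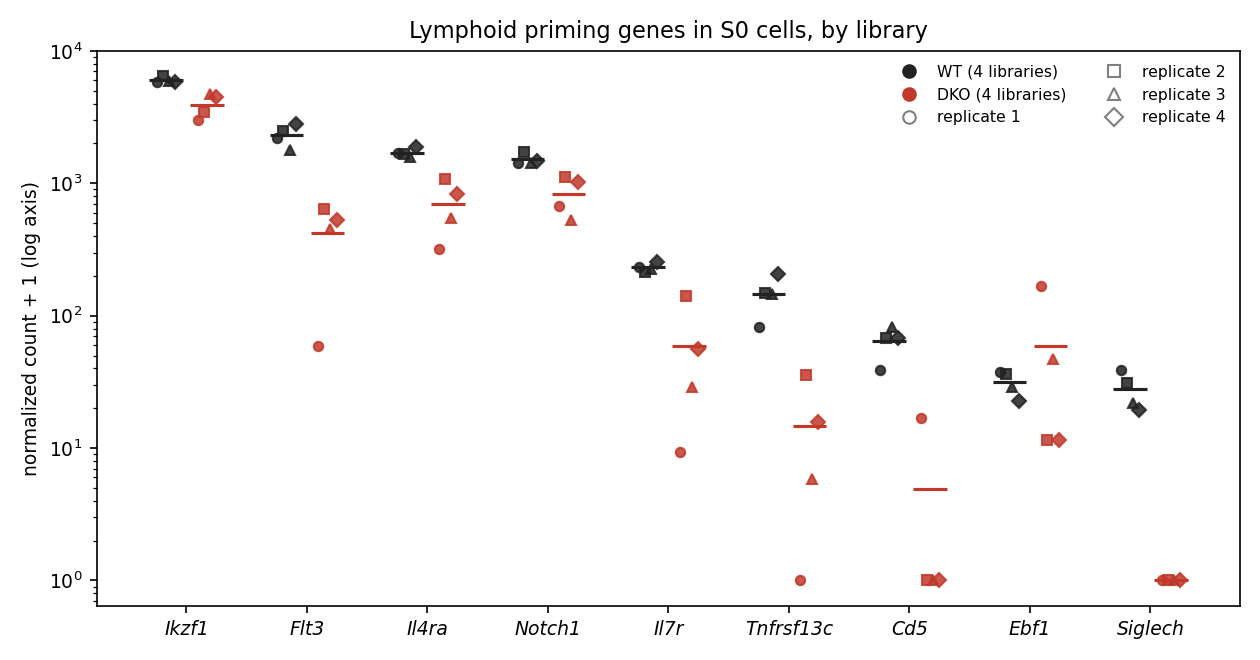
Normalized counts plus 1 of the 9 genes in each library, on a shared log axis, with WT and DKO side by side. Each point is a library and a line marks the group mean. For 8 genes the DKO points lie below the WT points. For Ebf1, DKO replicate 1, at 166 normalized counts, stands above the WT points while the groups overlap.

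The sequences just upstream of 4 of the genes called lower, Flt3, Siglech, Tnfrsf13c and Cd5, are shown because short motifs of factors known in early blood cells were found in them. They are RefSeq promoter sequences of GRCm38.p6, written 5′ to 3′ on the strand of the gene, and bases inside the annotated gene were trimmed. Flt3 is chr5:147400490-147400739 (minus strand), Siglech is chr7:55767934-55768177 (plus strand), Tnfrsf13c is chr15:82224381-82224630 (minus strand) and Cd5 is chr19:10739003-10739224 (minus strand). Capitals mark matches, on either strand, to GGAAGT (the core read by ETS factors such as PU.1), TGGGAA (read by both RBPJ, the DNA-binding partner of NOTCH1, and Ikaros), TGTGGT (RUNX), CAGGTG (E proteins) and CCCNNGGG (EBF1).
Flt3: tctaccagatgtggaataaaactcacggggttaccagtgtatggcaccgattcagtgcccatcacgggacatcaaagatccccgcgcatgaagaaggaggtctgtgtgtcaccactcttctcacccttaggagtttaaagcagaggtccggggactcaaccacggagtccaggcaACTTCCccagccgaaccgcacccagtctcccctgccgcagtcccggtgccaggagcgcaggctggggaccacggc
Siglech: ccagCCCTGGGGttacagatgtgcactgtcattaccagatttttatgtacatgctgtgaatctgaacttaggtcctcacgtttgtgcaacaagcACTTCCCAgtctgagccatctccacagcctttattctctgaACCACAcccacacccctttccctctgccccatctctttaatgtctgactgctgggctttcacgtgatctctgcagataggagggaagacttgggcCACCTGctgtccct
Tnfrsf13c: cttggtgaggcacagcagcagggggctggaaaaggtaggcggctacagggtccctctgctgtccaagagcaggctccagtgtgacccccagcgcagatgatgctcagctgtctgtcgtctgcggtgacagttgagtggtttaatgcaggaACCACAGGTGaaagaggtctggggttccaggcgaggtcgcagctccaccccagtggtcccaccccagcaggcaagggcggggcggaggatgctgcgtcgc
Cd5: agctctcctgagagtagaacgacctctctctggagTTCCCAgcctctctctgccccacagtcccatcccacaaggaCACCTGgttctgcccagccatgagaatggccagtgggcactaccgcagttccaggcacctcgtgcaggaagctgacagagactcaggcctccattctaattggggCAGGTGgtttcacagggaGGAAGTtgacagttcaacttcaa

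The 9 genes had 11 promoter windows of 250 bases, since Ikzf1 and Ebf1 each had more than 1 start. GGAAGT was found in 5 of the 11 windows, those of Flt3, Siglech, Cd5 and Il7r and 1 of Ebf1, and in 19.7% of all 32851 mouse promoters. TGGGAA was found in 3 windows and in 21.6% of promoters, TGTGGT in 3 and 14.0%, CAGGTG in 3 and 17.2%, and CCCNNGGG in 2 and 11.8%. The GATA motif AGATAA, present in 9.99% of promoters, was in none of the 11. In Siglech the GGAAGT and TGGGAA matches share bases, as do the TGTGGT and CAGGTG matches in Tnfrsf13c. The windows of Notch1 and Il4ra and 1 window of Ikzf1 held no match. A match is only a description of the letters and shows no binding.

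Flt3 had the highest mean of the receptor genes in WT per kilobase of exon. FLT3 is a tyrosine kinase receptor of early multipotent and lymphoid progenitors, and its gene (ENSMUSG00000042817.15) lies at 147330741 to 147400489 of chromosome 5 (GRCm38, as for all positions here), minus strand. The WT replicates 1 to 4 had 2209, 2483, 1780 and 2808 normalized counts, and the DKO replicates had 57.8, 640.5, 451 and 531. All 4 DKO libraries were far below the lowest WT library, and DKO replicate 1 kept 2.49% of the WT mean while the others kept 19.4% to 27.6%. Mean Flt3 fell from 2320 ± 435 to 420 ± 254 (SD, n = 4 each). On the log2 scale the fitted change was -2.47 ± 0.545 (SE), with an adjusted p of 0.0137 by edgeR, and the exact permutation test gave p = 0.0286, two-sided, the smallest that 4 against 4 allow. That p was the same for the other 7 genes without overlap. The adjusted p of Flt3 stayed at or below 0.0442 whichever library was left out, but rose to 0.197 with a term for sex.

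Il7r encodes the chain of the IL-7 receptor that also serves the receptor for TSLP (ENSMUSG00000003882.4, chromosome 15, 9505788 to 9530176, minus strand). Its counts were 220, 248, 258 and 292 in WT replicates 1 to 4 and 8, 120, 23 and 53 in the DKO replicates. The groups did not overlap, but the DKO libraries spread widely, from 3.64% of the WT mean in replicate 1 to 60.4% in replicate 2. The mean was 231 ± 17.8 normalized counts in WT and 57.8 ± 57.7 in DKO, with a fitted log2 change of -2.00 ± 0.667 (SE), and the edgeR adjusted p of 0.0601 missed the threshold. DESeq2 gave an adjusted p of 0.00974, and edgeR gave 0.0395 without DKO replicate 1 and 0.0129 without DKO replicate 2, so the call of Il7r turned on the method and on single libraries.

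Il4ra encodes the chain shared by the receptors for IL-4 and IL-13 (ENSMUSG00000030748.9, chromosome 7, 125552120 to 125579474, plus strand). The WT replicates had 1687, 1664, 1578 and 1864 normalized counts, and the DKO replicates had 316, 1081, 548 and 826. The WT libraries lay close together, and the DKO libraries were all lower, with replicate 1 the lowest and replicate 2 the highest. Mean Il4ra went from 1698 ± 120 to 693 ± 332, which edgeR fitted as a log2 change of -1.29 ± 0.312 (SE) with an adjusted p of 0.0188. Without WT replicate 1, 2 or 4 the adjusted p was just over the threshold, at most 0.0579, with a log2 fold change between -1.60 and -1.05 over all 8 omissions.

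Tnfrsf13c encodes BAFFR, the survival receptor of maturing B cells (ENSMUSG00000068105.10, chromosome 15, 82221743 to 82224369, minus strand), and was scarce. Its counts were 78, 170, 167 and 237 in WT and 0, 30, 4 and 14 in DKO. Every WT library held more than any DKO library, and DKO replicate 1 had no count. The WT mean was 145 ± 51.2 normalized counts, and the DKO mean was 13.6 ± 15.4. The fitted log2 change was -3.41 ± 0.921 (SE), with an adjusted p of 0.0286 by edgeR. The adjusted p exceeded 0.05 in 6 of the 8 fits that left out 1 library, when any WT replicate or DKO replicate 3 or 4 was removed, up to 0.0835, while the log2 fold change stayed between -4.45 and -2.98.

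Cd5, a surface protein of T cells and of B-1 cells (ENSMUSG00000024669.7, chromosome 19, 10717116 to 10739002, minus strand), had counts of 36, 77, 93 and 77 in WT and 15, 0, 0 and 0 in DKO. It was undetected in 3 of the 4 DKO libraries, and the remaining one, replicate 1, was still below the lowest WT library. The mean was 63.0 ± 18.1 normalized counts in WT and 3.94 ± 7.88 in DKO, with a fitted log2 change of -3.93 ± 1.24 (SE) that depends on how zeros are handled. The edgeR adjusted p was 0.0490, and it exceeded 0.05 in 7 of the 8 fits without 1 library, all but that without DKO replicate 1 (up to 0.110), and without TMM (0.0545), with upper-quartile scaling (0.0559) and without the low-count filter (0.0685).

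Siglech, a sialic acid binding lectin of plasmacytoid dendritic cells and some macrophages (ENSMUSG00000051504.18, chromosome 7, 55768178 to 55778925, plus strand), had 36, 35, 24 and 21 counts in the WT replicates and 0 in each of the 4 DKO replicates. It was thus detected in every WT library and in no DKO library. A count of 0 allows up to 3 counts per library, which is 3.36 normalized counts on average over the DKO libraries, and against the WT mean of 26.8 ± 8.88 Siglech was at least 7.97-fold lower. The edgeR adjusted p was 0.00531 and stayed at or below 0.0274 when any 1 library was left out. The bound, -2.99 on the log2 scale, lies below the median of the 9 log2 fold changes, so setting Siglech to it could not move that median from -2.00.

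Notch1 encodes the receptor that directs early progenitors to the T cell fate (ENSMUSG00000026923.15, chromosome 2, 26457903 to 26516663, minus strand). Its normalized counts were 1428, 1737, 1413 and 1484 in WT and 668, 1107, 524 and 1029 in DKO. All 4 DKO libraries were lower, at 34.6% to 73.0% of the WT mean, and replicate 3 was the lowest. The mean was 1516 ± 150 in WT and 832 ± 281 in DKO, and the fitted log2 change of -0.87 ± 0.226 (SE), with an adjusted p of 0.0251 by edgeR, did not reach the size required for a call. Without WT replicate 1, 2 or 4 the adjusted p was over 0.05, up to 0.0782. With a term for sex its log2 change was -1.53, with an adjusted p of 0.0225 by edgeR.

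Ikzf1 had the highest level of the 9 genes per kilobase of exon in both genotypes and changed the least of the 8 that were lower. It encodes Ikaros, a zinc finger factor that works with chromatin remodelling complexes (ENSMUSG00000018654.17, chromosome 11, 11685003 to 11772926, plus strand). The WT replicates had 5844, 6467, 5905 and 5794 normalized counts, and the DKO replicates had 3015, 3441, 4696 and 4448. The WT values were tightly grouped apart from replicate 2, and the DKO values were all below them, at 50.2% to 78.2% of the WT mean. The mean was 6003 ± 313 in WT and 3900 ± 802 in DKO. By edgeR the log2 change was -0.62 ± 0.138 (SE) with an adjusted p of 0.0137, below the size required for a call. Leaving out any 1 library kept the adjusted p at or below 0.0452 and the log2 fold change between -0.72 and -0.52, and with a term for sex the adjusted p was 0.306.

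Ebf1, the factor that commits progenitors to the B cell lineage (ENSMUSG00000057098.14, chromosome 11, 44617317 to 45008091, plus strand), was the exception among the 9 genes. Its counts were 35, 41, 32 and 25 in WT and 158, 9, 38 and 10 in DKO. DKO replicate 1 was far above all WT libraries, replicate 3 was above all 4 WT libraries in normalized counts, and replicates 2 and 4 were below them. The means of 30.4 ± 6.90 and 58.3 ± 73.8 normalized counts gave a fitted log2 change of 0.94 ± 0.840 (SE) with an adjusted p of 0.462 by edgeR, and the exact permutation test gave p = 1. Without DKO replicate 1 the direction turned, to -0.45 (adjusted p = 0.687 by edgeR). That library also had the highest mesenchyme marker sum, given with the other markers, whose part in the Ebf1 count was not tested.

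**Figure D2:**
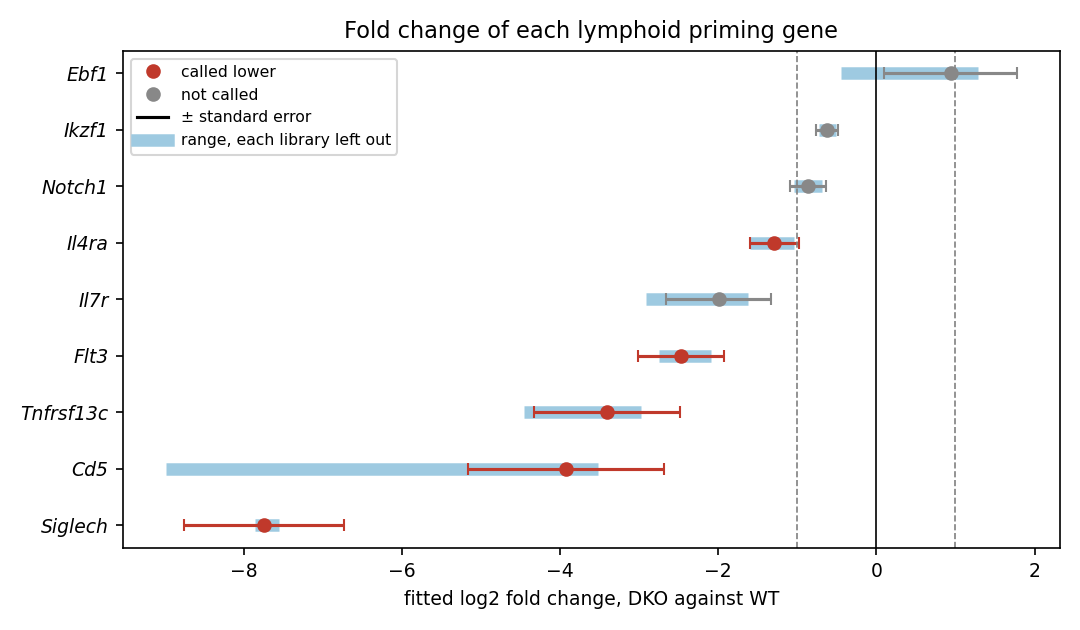
Log2 fold change of DKO against WT for each of the 9 genes, with the standard error as a capped line, the range over the 8 fits that left out 1 library as a pale bar, and called genes in red. Fitted values run from -7.75 for Siglech, where the size depends on the prior count, to 0.94 for Ebf1, whose pale bar crosses 0.

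By library, DKO replicates 2 and 4 had all 9 genes below the lowest WT library, and replicates 1 and 3 had 8, Ebf1 being the exception in both. Shares of all genes below the lowest WT library were not counted for single DKO libraries, so these numbers are a description. The median log2 ratio to the WT mean over the 9 genes, with a pseudocount of 1 normalized count, was -2.42, -1.45, -2.36 and -2.04 in DKO replicates 1 to 4. Replicate 1 was the lowest of the 4 DKO libraries, ties at 0 included, in 6 of the 9 genes, and replicate 2 was the closest to WT. The DKO libraries thus differed among themselves in how far Flt3, Il7r, Il4ra and Tnfrsf13c were reduced, whereas Siglech was at 0 in all of them.

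**Figure D3:**
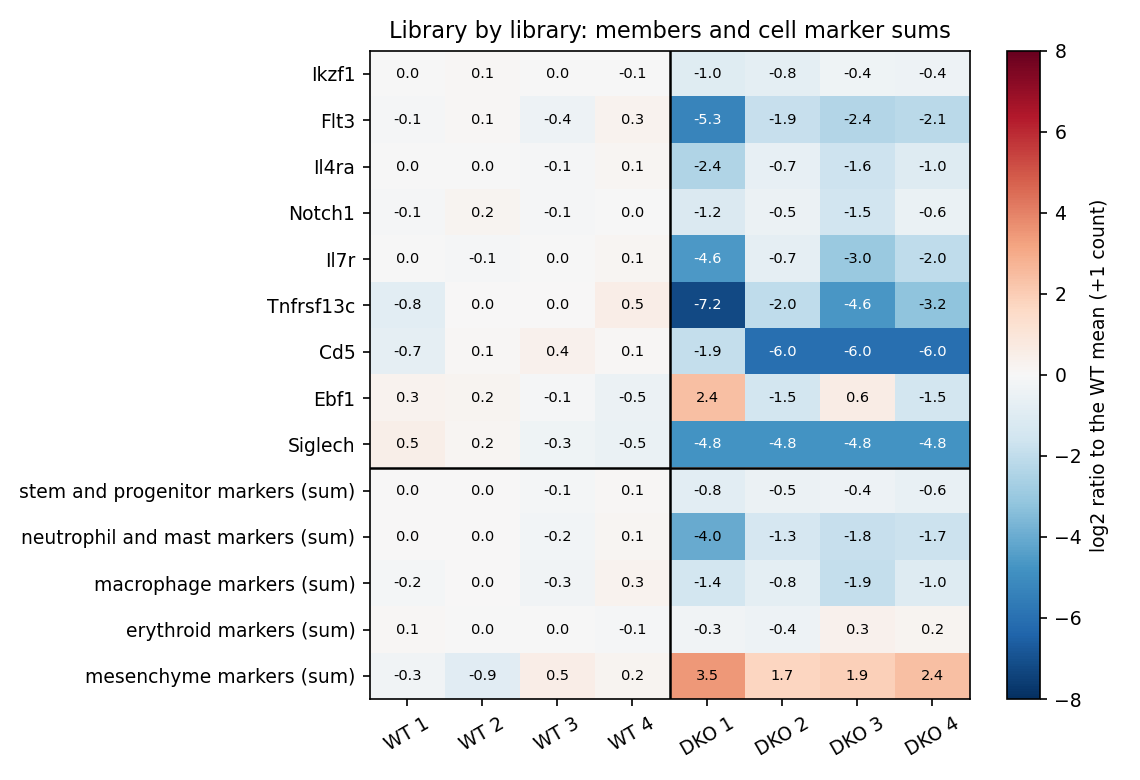
Log2 ratio of each library to the WT mean for the 9 genes, from normalized counts with a pseudocount of 1, as a grid of genes by libraries with the value printed in each cell and the sums of 5 cell marker lists under the line. Among the 9 genes, DKO replicate 1 holds both the lowest and the highest value of the DKO libraries, -7.19 for Tnfrsf13c and 2.41 for Ebf1.

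Per kilobase of exon, which allows levels to be compared between genes, the order in WT was Ikzf1 (1039 normalized counts per kilobase), Flt3 (376), Il4ra (283), Notch1 (107), Tnfrsf13c (70.8), Il7r (49.5), Cd5 (12.8), Siglech (7.91) and Ebf1 (3.12). In WT, the ranges of Flt3 and Il4ra overlapped, at 288 to 455 and 263 to 311, as did those of Notch1 and Tnfrsf13c, at 99.3 to 122 and 39.9 to 101, those of Tnfrsf13c and Il7r, at 39.9 to 101 and 45.8 to 54.7, and those of Cd5 and Siglech, at 7.65 to 16.4 and 5.43 to 11.1. In DKO the order changed to Ikzf1 (675), Il4ra (115), Flt3 (68.0), Notch1 (58.5), Il7r (12.4), Tnfrsf13c (6.64), Ebf1 (5.98), Cd5 (0.80) and Siglech (0). In DKO the ranges of Il4ra (52.7 to 180.1), Flt3 (9.36 to 104) and Notch1 (36.8 to 77.8) overlapped. So did those of Il7r (1.80 to 29.9), Tnfrsf13c (0 to 17.0), Ebf1 (1.07 to 17.0) and Cd5 (0 to 3.20). Flt3 also overlapped Il7r, Tnfrsf13c and Ebf1, and Cd5 reached the 0 of Siglech. The order among genes with overlapping ranges was not clear.

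The genes whose profile over the 8 libraries was most like that of each member were sought by the root-mean-square difference of log2 levels relative to the WT mean. Flt3 was closest to Mpo, the myeloperoxidase of neutrophil precursors (difference 0.225 on the log2 scale), and to the immunoglobulin joining segment Ighj1 (0.245). Il7r was closest to Pik3ap1, a signalling adaptor of B cells (0.215), and to Tmem154 (0.331). For Il4ra these were Unc93b1, which carries Toll-like receptors to endosomes (0.100), and Parvg (0.174), for Notch1 Msra (0.156) and Etnk2 (0.175), and for Ikzf1 Acsl5 (0.101) and the cell cycle gene Cdca5 (0.102). Siglech was closest to Ces1e (0.331) and Tnfsf11 (0.379), which were also at 0 in all DKO libraries. In DKO this match is set by the zeros and by their similar WT levels. Tnfrsf13c (Cd300lb at 0.698 and Gm19590 at 0.718), Cd5 (Robo4 at 0.527 and Ms4a4c at 0.770) and Ebf1 (Mid1 at 0.524 and 1110003F10Rik at 0.540) had less close neighbours. Among the 9 genes themselves, Notch1 and Ikzf1 were the closest pair (0.443), followed by Notch1 and Il4ra (0.489). These distances over 8 libraries are a description.

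Other genes of the lymphoid lineages were examined in 5 lists. Of 122 genes, 85 were tested, 16 were called lower and 5 higher, and their median log2 fold change was -0.67. With a term for sex, 3 were called lower and 1 higher. Among 17 lymphoid receptors tested, 7 were called lower and 0 higher, including Cd48 (-2.13), Cd93 (-1.93) and the chemokine receptor Ccr7 (-2.53). In the B lineage list, Rag2, which cuts antigen receptor genes, fell by 3.05 on the log2 scale (edgeR adjusted p = 0.0050) and the heavy chain gene Ighm fell by 3.19 (edgeR adjusted p = 0.00653), and these were the 2 called of 16 tested. Ighm counts were 1448, 2366, 1484 and 2185 in WT and 34, 329, 90 and 201 in DKO. In the T and NK list, the costimulatory receptor genes Cd28 (-4.17) and Icos (-2.29) and the granule gene Nkg7 (-1.14) were called lower of 13 tested.

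Transcription factors of the lymphoid lineages were mixed. Of 28 tested, Ikzf2 (-1.06), Satb1 (-1.14) and Irf8 (-1.79) were called lower, and Id3 (1.80) and Bcl11b (2.65) were called higher. The E protein gene Tcf3, whose product ID3 inhibits, stood at 0.48 on the same scale (adjusted p = 0.00885 by edgeR), and Tcf7, a target of NOTCH1 in T cell precursors, stood at 0.08 (adjusted p = 0.892). In the plasmacytoid dendritic cell list, to which Siglech is related, Runx2 (-1.71) was called lower of 11 tested, and Bst2 (2.10), Xcr1 (2.40) and Cox6a2 (2.40) were called higher. Bst2 is also an interferon-stimulated gene, and Xcr1 marks conventional dendritic cells.

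Many genes that define mature lymphoid cells were at or near 0, and others were detected. Of the 27 T and NK genes, Cd8a, Cd8b1, Cd2 and Ncr1 had no count in any library, and 5 genes, these included, stayed under 10 counts in all 8 libraries, with Cd3e at 8 counts in 1 WT library and none elsewhere. Of the 24 B lineage genes, Vpreb2 and Ms4a1 had no count, and 4 genes, these included, stayed under 10 counts everywhere. Pax5 and Dntt had at most 9 counts. Other members of these lists had more, such as Cd4 with 32 to 61 counts in WT and 0 to 21 in DKO, Cd3g with 10 to 54 and 14 to 43, and Cd79b with 1055 to 1600 and 310 to 877. Rag1, the partner of Rag2, had 33, 52, 0 and 74 counts in WT and none in DKO. The B lineage genes summed to 13344 to 16205 normalized counts in WT and 4965 to 8948 in DKO, with Btk and Syk, which other blood cells also express, making up most of the WT sum. The T and NK sums overlapped, at 5656 to 6238 and 4220 to 7771, with Lat the largest part (3562 on average in WT and 5017 in DKO), although 10 of the 13 T and NK genes tested had a log2 fold change below 0 and their median was -1.69. The plasmacytoid dendritic cell genes, were at 4807 to 5840 in WT and 10521 to 17446 in DKO, where most of the sum was Bst2, while Siglech was at 0 in DKO.

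**Figure D4:**
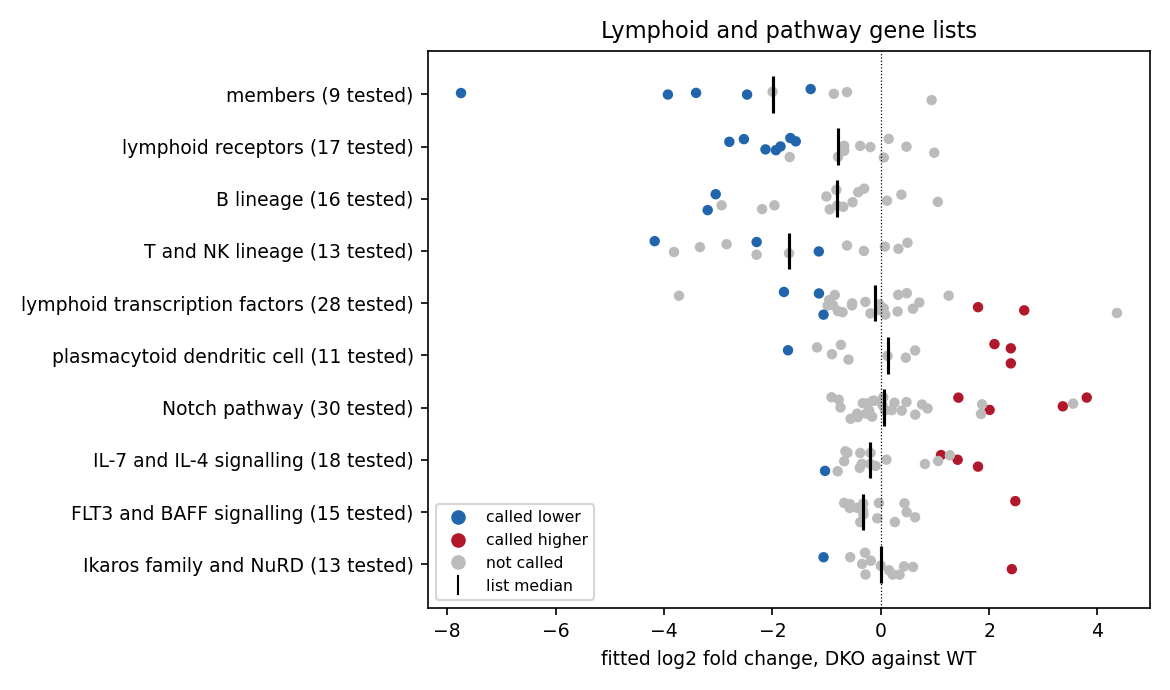
Log2 fold change of DKO against WT for each tested gene of the lymphoid and pathway lists, 1 row per list, with blue points for genes called lower, red for genes called higher, grey for the rest and a tick at the list median. The median was -2.00 for the 9 genes, -0.79 for lymphoid receptors and 0.06 for the Notch pathway.

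Genes that act with the receptors and with Ikaros were examined in 4 lists. Of 30 Notch pathway genes tested, 0 were called lower and 4 were called higher, the targets Hes1 (1.43), Heyl (3.80) and Hey1 (3.36) and the receptor Notch3 (2.01). Hes1 was at 292 ± 27.8 normalized counts in WT and at 789 ± 390 in DKO, with an adjusted p of 0.0144 by edgeR, while Heyl and Hey1 had only 13.6 and 13.0 on average in WT. Genes of the proteases and cofactors that release and assist NOTCH1 went both ways, by less than the size required for a call. Among them Psen2 was higher (0.39, adjusted p of 0.0238 by edgeR), Adam17 (-0.78), Adam10 (-0.42), Ncstn (-0.44), Maml3 (-0.56) and Mfng (-0.91), which modifies Notch receptors, were lower (adjusted p of 0.00691 to 0.0239 by edgeR for these 5), and Aph1a (-0.27), Aph1b (0.76), Psenen (-0.12), Maml1 (0.05) and Maml2 (-0.14) did not pass the test. Rbpj, at -0.25, had an adjusted p of 0.0823 by edgeR.

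In the list of IL-7 and IL-4 signalling, the kinase gene Jak3 was called lower among 18 tested (-1.03, from 3332 ± 266 to 1634 ± 412 normalized counts, adjusted p = 0.00531 by edgeR). Irs2 (1.11), the inhibitor Socs1 (1.42) and Il4 itself (1.80) were called higher. At any fold, 6 of the 18 were lower and 3 were higher with an adjusted p under 0.05 by edgeR. Those lower were Jak3 and, by less than the size required for a call, Jak1 (-0.65), Stat6 (-0.79), Ptpn6 (-0.67), Stat5b (-0.35) and Tyk2 (-0.61). The common gamma chain gene Il2rg, which pairs with both IL7R and IL4RA, had a log2 change of -0.38 with an adjusted p of 0.278 by edgeR. Of 15 genes of FLT3 and BAFF signalling, 0 were called lower and Relb (2.48) was called higher, and of 13 genes of the Ikaros family and the NuRD complex, Ikzf2 (-1.06) was called lower and Ikzf4 (2.42) higher. The counts of 0 by edgeR in the lymphoid receptor, Notch, and FLT3 and BAFF lists were also 0 at an unadjusted p under 0.05 and by DESeq2.

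Markers of some other cell types moved with the genotype as well, as measured in the summed normalized counts of each list, while other sums overlapped. The sum of 18 neutrophil and mast cell genes, dominated by Mpo, was 110441 to 143400 across WT, while DKO replicates 1 to 4 summed to 8083, 51436, 36641 and 38794, and 5 of its 12 tested genes were called lower, Csf3r (-2.24) and Elane (-1.88) as well as Mpo (-2.23) among them. Flt3 and Il7r were also lowest in replicate 1 and highest in replicate 2. Stem and progenitor markers summed to 77823 to 89547 in WT and 47936 to 65074 in DKO, with 6 of 20 called lower, Kit (-1.11) and Erg (-1.93) among them. Macrophage markers, among which Siglech could be placed, summed to 8182 to 12114 in WT and 2662 to 5564 in DKO, with 2 of 15 called lower, Lyz2 (-1.98) and Adgre1 (-2.99). Of the endothelial genes Pecam1 (-1.14) and Sox18 (-1.95) were called lower. The 12 megakaryocyte genes had overlapping sums, at 66327 to 80460 in WT and 46289 to 136043 in DKO, and 1 of them was called lower. Erythroid markers, which check the label, were abundant in both groups, at 82411 to 91060 and 66283 to 107987, with no gene of 16 called by edgeR or DESeq2 and with Klf1 (0.06) and Car2 (-0.05) the most abundant. Hepatoblast markers were also abundant, at 730193 to 988759 in WT and 218466 to 836097 in DKO, led by Afp (-0.35) and Trf (-0.83), which did not pass the test. Of the 14 hepatoblast genes, 13 had a log2 fold change below 0 (median -0.81), edgeR called 0, and 2 were called lower by DESeq2 and at an unadjusted p under 0.05.

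Mesenchyme markers moved the opposite way. Their sum over 12 genes was 2232 to 6103 in WT and 46998, 13585, 15527 and 22265 in DKO, and 11 of the 12 were called higher, Dcn (2.25) and Col1a2 (3.03) among them. Hes1, Heyl, Hey1, Notch3, Id3 and Ebf1 are known in mesenchymal cells too, and Ebf1 was highest in DKO replicate 1, the library with the highest mesenchyme sum. The part of the myeloid, stem cell and mesenchyme markers in the levels of the 9 genes was not tested.

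**Figure D5:**
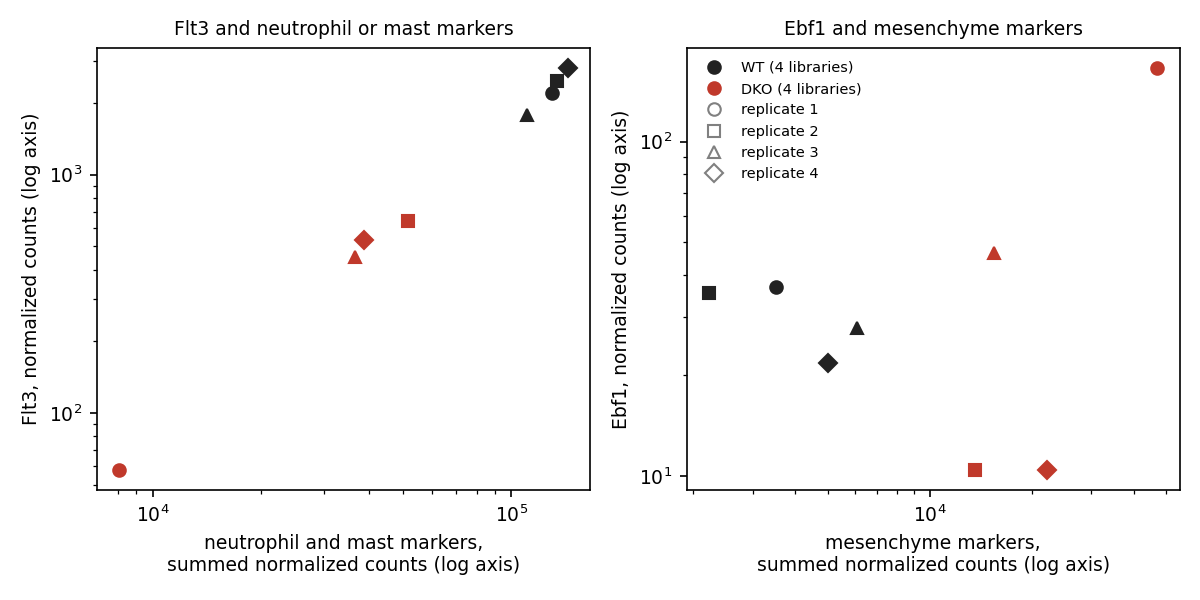
Normalized counts of Flt3 against the summed normalized counts of neutrophil and mast cell markers (left), and of Ebf1 against those of mesenchyme markers (right), 1 point per library on log axes, with WT and DKO in different colours and a symbol for each replicate. DKO replicate 1 lies lowest on both axes on the left, at 57.8 for Flt3 and 8083 for the marker sum, and highest on both on the right, at 166 for Ebf1 and 46998.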

How the data were processed

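RNAseq of S0 cells from E12.5 fetal liver was analysed for 4 WT and 4 DKO libraries, grouped by their labels, with the count columns matched by library name and 0 columns left unused. According to the sources used here, the authors trimmed reads with fastp 0.21.0, mapped them to mm10 with HISAT2 2.2.1, kept alignments of mapping quality 20 or more and ran StringTie 1.3.3b and prepDE. The deposited values are whole-number counts for each gene. These counts were not normalized, and prepDE derives them from coverage and a set read length. Whether counting used strand is not given in the sources used here.

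The analysis used edgeR 4.0.16 (with limma 3.58.1, in R 4.3.3). After the filterByExpr filter and TMM scaling, DKO was compared with WT by edgeR's quasi-likelihood test, fitted robustly, and p-values were adjusted over 17378 genes by the Benjamini-Hochberg method. Calls needed an adjusted p under 0.05 and a log2 change beyond 1 in either direction. Exact permutation tests used the 70 arrangements of the 8 libraries. The alternatives were DESeq2 1.42.0, no TMM, upper-quartile scaling, other low-count filters, counts divided by 2, each library left out in turn, a replicate block, a sex term and no fold-change threshold. On simulated counts for this comparison over 17378 genes, 193 of 200 changed genes were called in the right direction (96.5%), and 6 unchanged genes were called. The simulated counts had a biological coefficient of variation of 0.375, and changes were put only into genes above a minimum mean. Those changes were larger than the ones fitted for Notch1, Ikzf1 and Il4ra. In the data, the coefficient of variation over the DKO libraries ran from 20.6% for Ikzf1 to 200% for Cd5, with none for Siglech. How often genes with the spread and fold change of each of the 9 would be called was not tested. Libraries of 1 genotype differed far beyond counting error (smallest chi-square per gene 17.5), so none was a copy of another.

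The genes and lists were chosen with earlier results of these data known. Genes named were the 9 genes, up to 4 called genes of each list with the smallest p, or its 2 most abundant where none was called, and the 2 genes most like each of the 9. The other genes with values, such as Tcf3, Tcf7, Rbpj, Il2rg, Rag1, Cd79b, the Notch proteases and the defining markers at or near 0, were chosen after their values were seen. Counting error does not limit the abundant genes at these totals, whereas Siglech, Cd5, Ebf1 and Tnfrsf13c rested on few counts, and the floor of 3 counts covers counting error only. Promoter windows were the 250 bases before the start in RefSeq. Some genes that the naming rule selects are not reported here. Other experiments of the study were not used here.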

Additional observations from a re-analysis of the deposited data

Results flagged for a closer look

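Among the 17 groups of 4 libraries examined, 2 held a library that stood apart from the other 3 by Dixon's test at the 95% level, which sets the gap to the nearest library against the range of the group. Cd5 in DKO replicate 1 was the highest DKO value, 15.76 normalized counts, with the other 3 at 0, so the gap was the whole range. Ikzf1 in WT replicate 2 was the highest WT value, 6466.78 normalized counts, with a gap of 0.835 of the range. Chance gives about 1 in 20 such groups.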

How the results depend on the processing

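The deviations of same-numbered libraries correlated between -0.0702 and 0.0357, which gave no sign of pairing by replicate number. With 4 libraries per genotype, this cannot show whether libraries shared a litter or a batch, which the labels do not give. With the replicate block, 3 of the 9 genes were called lower instead of 5 (Cd5 had an edgeR adjusted p of 0.0713 and Siglech 0.0553), and 613 of all genes were called higher instead of 1076. The sex term left 1 of the 9 called lower, 3 of the other lymphoid genes lower instead of 16 and 1 higher instead of 5, and, of all genes, 477 lower instead of 423 and 273 higher. With at least 10 counts in every library, 2 of the 9 were called lower, and only 4 of the 9 remained to be tested. DESeq2 called 1653 of all genes higher. Without a fold-change threshold, 1878 of all genes were lower and 1867 higher. Leaving out 1 library gave 2 to 6 of the 9 genes lower, 9 to 21 of the other lymphoid genes lower, and 243 to 521 of all genes lower and 566 to 1148 higher. Only 2 of the 9 were called without WT replicate 1, 2 or 4, and 3 without WT replicate 3 or DKO replicate 3 or 4. The log2 fold change of Ebf1 ran from -0.45, without DKO replicate 1, to 1.29, and Ebf1 was the only one of the 9 to change direction. The median log2 fold change of all genes moved from 0.03 to 0.14 with DESeq2 and with upper-quartile scaling and to 0.13 without the filter. The cause of these shifts was not tested. DKO was represented by 1 library of the male type, so the sex term rests on that library.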

Other observations

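Ptprc encodes CD45, carried by most blood cells other than erythroid ones, and the 9 genes were also read as a percent of it in each library, a ratio chosen after the data were seen and given with no test. Ptprc itself was at 2561 to 4481 normalized counts in WT and 378 to 1939 in DKO. Flt3 was 59.5% to 69.5% of Ptprc in WT and 15.3% to 48.8% in DKO, Tnfrsf13c was 2.35% to 5.66% and 0% to 1.80%, and Siglech was 0.410% to 1.08% and 0%, each without overlap. For Siglech this follows from its count of 0, whatever the level of Ptprc. Il7r, at 5.11% to 8.75% in WT and 2.22% to 7.19% in DKO, and Il4ra, at 39.9% to 61.6% and 44.8% to 83.6%, overlapped between the genotypes. Notch1 was 33.1% to 55.2% in WT and 42.8% to 177% in DKO, and Ikzf1 was 129% to 231% and 177% to 797%, both with overlap and with the highest value in DKO replicate 1. Cd5 was 1.08% to 3.15% of Ptprc in WT and 4.17% in DKO replicate 1, the only DKO library in which it was detected.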
